A study of Arabidopsis thaliana with 12 samples.

Results

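UDP-glycosyltransferases (UGTs) were followed in Arabidopsis roots through a time course on sulfur-deficient medium. The genes were chosen by name. A probe set was taken where the array's annotation paired it with 1 symbol made of UGT, a number, a letter and a number. UGT91A1 (AT2G22590) was added, and the glucosinolate genes UGT74B1 and AT2G31790 were left out. This gave 47 genes, each with 1 probe set, among 22746 probe sets other than controls. Genes of the family that the annotation does not name in this way are not in the set.

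UGTs transfer a sugar from a UDP-sugar to a small molecule such as a hormone, a flavonoid, another phenolic or a foreign compound. The sugar changes how soluble the molecule is, where it is stored and whether it is active. The number in a UGT name gives the sequence family, and the letter its subfamily. In Arabidopsis the UGT78D enzymes act on flavonols, UGT84A enzymes on hydroxycinnamic acids such as sinapate, UGT72E enzymes on monolignols and their aldehydes, and UGT76C enzymes on cytokinins.

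Whole-root RNA of ecotype Columbia was hybridised to 12 arrays, 2 in each of 6 groups. Seedlings spent 5 days on standard MS medium. The 0 h group was then moved to fresh standard medium, and the other groups stayed on sulfur-deficient medium for 3, 12, 24, 48 or 72 h. No group stayed on standard medium for these later times, so the lack of sulfur cannot be told apart from the transfer, age or hour of harvest. The labels number the replicates but name no separate cultures. The p-values therefore rest on a spread between arrays that may be purely technical. In whole roots, fewer cells of a type and less RNA per cell cannot be told apart.

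Signals are the deposited MAS5 intensities, a linear measure of probe brightness that depends on the probes, so levels of different genes are not ranked against each other as transcript amounts. All arrays had a 2% trimmed mean of 250.02 or 250.03, and replicate arrays correlated at 0.966 to 0.982 over probe sets. A probe set was tested where its signal passed the array's 40th percentile (45.3 to 50.4) on at least 2 arrays. This left 14678 probe sets and 31 of the 47 UGT genes. Of these 31 genes, 27 lay above that percentile on all 12 arrays. UGT74F1, UGT76C1 and UGT85A4 stayed between 26.7 and 58.7, UGT78D1 ranged from 20.6 to 214, and no gene was tested through 1 group only.

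The 16 genes not tested had signals from 0.566 to 52.1. They were UGT71B5, UGT71B6, UGT71B8, UGT73C1, UGT73C2, UGT73C7, UGT76E1, UGT76E2, UGT76E11, UGT76E12, UGT78D3, UGT84B1, UGT84B2, UGT85A3, UGT85A5 and UGT85A7. For 13 of them every array was at or below the percentile, and UGT73C7, UGT76E2 and UGT76E12 passed it on 1 array each. UGT76E12 read 47.7 and 28.0 at 3 h, against 7.14 and 14.6 at 0 h. These are dim signals with no detection calls, and no difference is drawn from them.

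**Figure D1:**
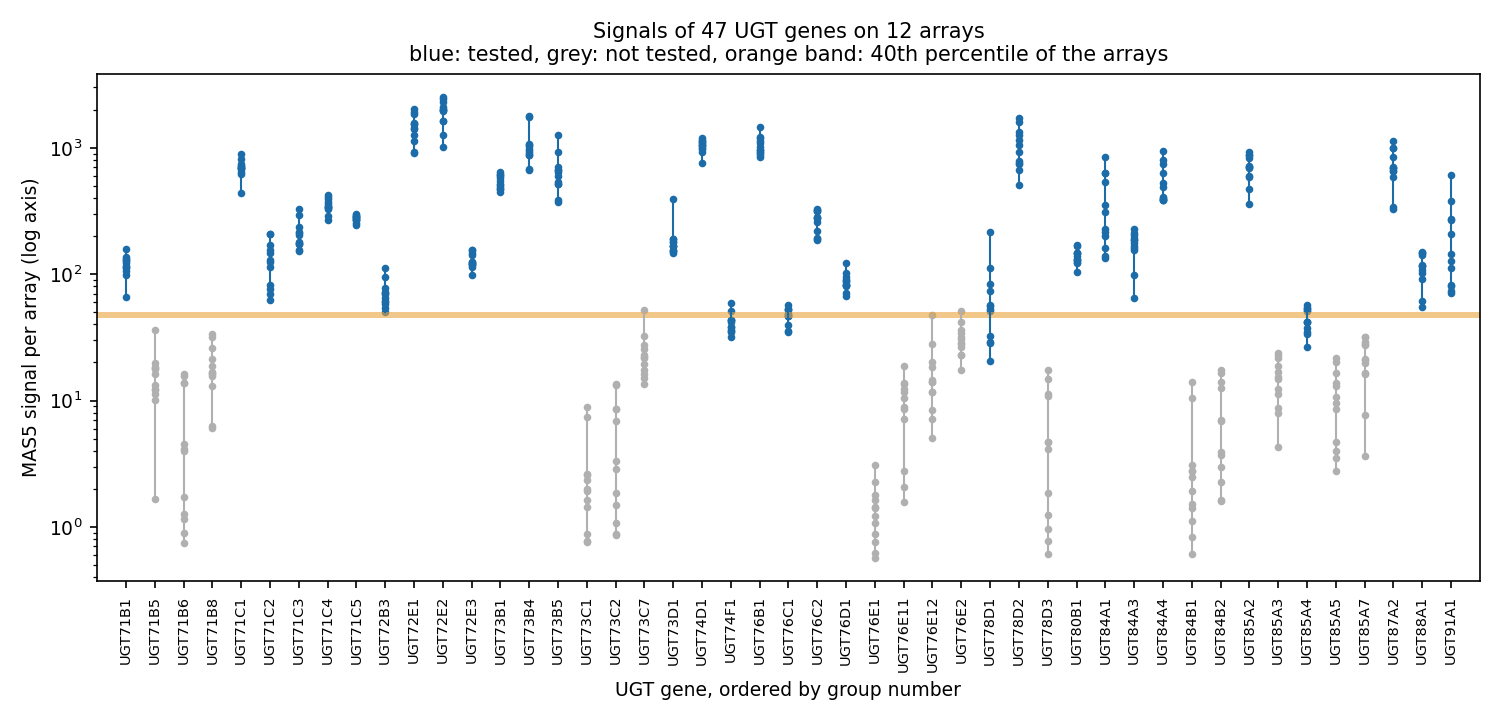
Signal of each of the 47 UGT genes (MAS5 intensity, log axis) on each array, 1 point an array with a line from lowest to highest, tested genes in blue, untested genes in grey and the arrays' 40th percentile as an orange band. The 16 untested genes do not exceed 52.1, while UGT72E1 is at 901 or more on every array.

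After 3 h, 10 of the 31 tested UGT genes rose and 3 fell. The genes that rose were UGT91A1, UGT84A1, UGT84A3, UGT84A4, UGT78D1, UGT78D2, UGT87A2, UGT73B4, UGT73B5 and UGT72E2, by 1.58-fold to 6.28-fold. UGT71C2, UGT85A2 and UGT88A1 fell, to between 0.347 and 0.527 of the 0 h level. Over all tested probe sets 5.42% rose and 6.53% fell at 3 h. UGT91A1 entered the set with its rise already known, and 9 genes rose without it.

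The number of UGT genes past the threshold was smaller at each later time up to 48 h. At 12 h, 9 rose and 1 fell, beside 3.36% and 4.33% of all tested probe sets. At 24 h, 6 rose and 1 fell, beside 2.47% and 2.36%. At 48 h and at 72 h, 5 rose and 0 fell, beside 1.97% and 1.55% at 48 h and 2.91% and 3.26% at 72 h. For the falls at these last times limma gave no call, while 10 of the 31 UGT genes at 48 h and 8 at 72 h had an unadjusted p under 0.05 in either direction, beside 15.4% and 19.9% of all tested probe sets. Leaving out 24 h replicate 1 left 0 of the 7 calls at 24 h, leaving out 0 h replicate 2 left 2, and leaving out 24 h replicate 2 left 4. At 12 h, 6 calls were made without 12 h replicate 1. At 48 h, 3 calls were made without any 1 of the 0 h or 48 h arrays, and at 72 h 3 without 72 h replicate 2.

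The median log2 difference of the 31 tested genes was 0.18 at 3 h, 0.20 at 12 h, 0.07 at 24 h, 0.10 at 48 h and 0.08 at 72 h, beside -0.01, -0.02, 0.00, 0.01 and 0.00 over all tested probe sets. With no filter on dim signals, 13 of the 47 genes passed at 3 h (27.7%), and 6.77% of all probe sets did. Without the filter the median of the 47 genes was 0.05 at 3 h and -0.12 at 12 h, beside -0.02 and -0.04 over all probe sets. A moderated F test over the 5 times called 13 UGT genes, and 11.7% of all tested probe sets. These were the same 13 genes as at 3 h: every UGT gene that passed at a later time had also passed there.

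**Figure D2:**
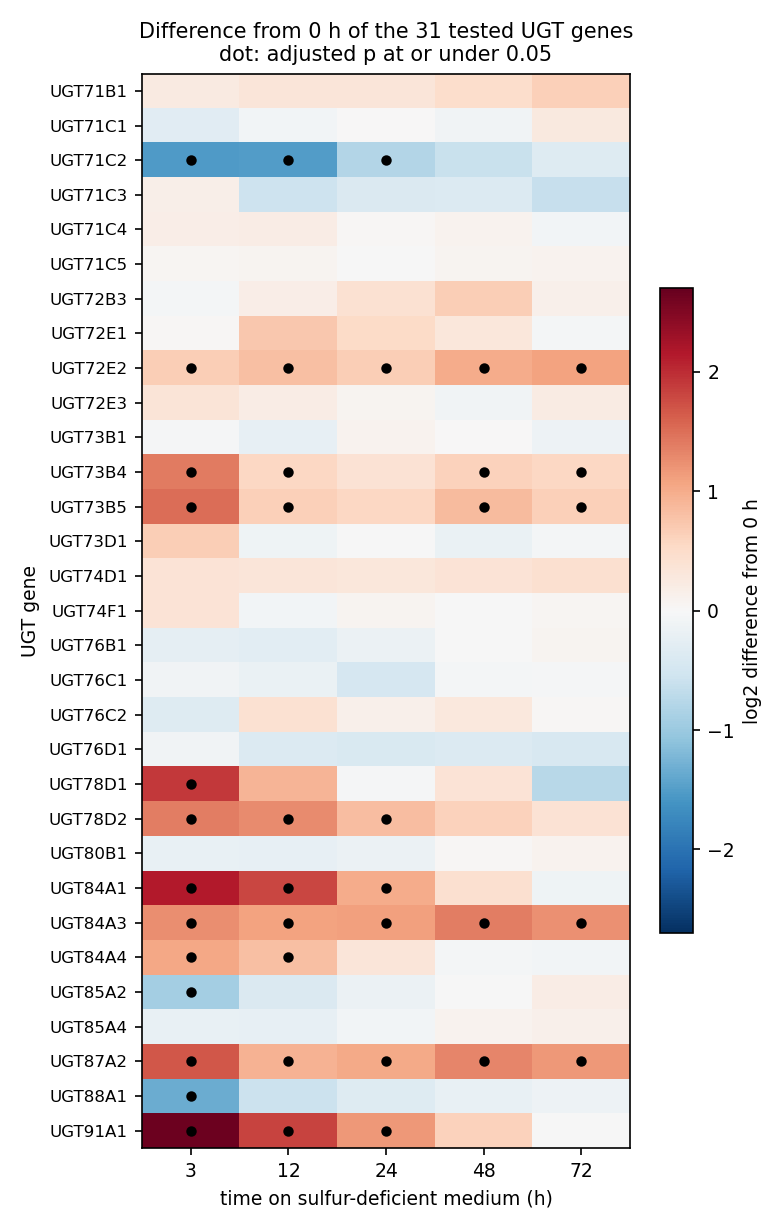
Log2 difference from 0 h (colour scale, 2 arrays a group) of the 31 tested UGT genes at 3, 12, 24, 48 and 72 h, with genes ordered by UGT group and a dot where the adjusted p is at or under 0.05. UGT84A1 and UGT91A1 are strongest at 3 h and near 0 at 72 h, while UGT84A3, UGT87A2 and UGT72E2 are marked at all 5 times.

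UGT91A1 had the largest rise. It is a glycosyltransferase reported as a target of the MYB regulators of flavonol synthesis. Its signals were 71.4 and 82.6 at 0 h, 379 and 613 at 3 h, 269.8 and 271 at 12 h, 207 and 143 at 24 h, 127 and 111 at 48 h, and 79.9 and 73.1 at 72 h. Both arrays of 3, 12, 24 and 48 h lay above both 0 h arrays, and at 72 h the groups overlapped. The log2 difference from 0 h was 2.65 ± 0.23 (SE, n = 2 arrays a group; adjusted p = 4.22e-06) at 3 h, 1.82 (0.000303) at 12 h and 1.17 (0.0104) at 24 h. It was 0.63 at 48 h (adjusted p = 0.191) and -0.01 at 72 h (0.991). Without 24 h replicate 1 the adjusted p at 24 h was 0.152.

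UGT84A1 (AT4G15480) makes glucose esters of hydroxycinnamic acids and is another reported target of those MYB regulators. Its signals were 202 and 135 at 0 h, 629 and 841 at 3 h, 628 and 533 at 12 h, 349.7 and 309 at 24 h, 214 and 229 at 48 h, and 162 and 140.3 at 72 h. The arrays of 3 to 48 h were all above the 0 h arrays, and those of 72 h fell between them. Relative to 0 h, the log2 difference was 2.14 ± 0.20 (SE; adjusted p = 9.39e-06) at 3 h, 1.81 (0.000109) at 12 h and 1.00 (0.0128) at 24 h. It was 0.43 (0.339) at 48 h and -0.13 (0.791) at 72 h. At 24 h the call did not hold without 0 h replicate 2 (adjusted p = 0.109) or 24 h replicate 1 (0.141).

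UGT84A4 (AT4G15500), of the same subfamily, read 399.7 and 411 at 0 h, 937 and 739 at 3 h, 799.7 and 629.9 at 12 h, 525 and 489 at 24 h, 388 and 396 at 48 h, and an equal 388 for the 72 h pair. It was above 0 h on every array up to 24 h and below it at 48 and 72 h. It rose by 1.04 ± 0.16 on the log2 scale at 3 h (adjusted p = 0.000524) and by 0.81 at 12 h (0.00587). The later differences were 0.32 (0.315), -0.05 (0.926) and -0.06 (0.879). Without 12 h replicate 1 the adjusted p at 12 h was 0.0767.

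Both tested enzymes of the UGT78 group act on flavonoids. UGT78D1 (AT1G30530) adds rhamnose to flavonols, and UGT78D2 (AT5G17050) adds glucose to flavonols and anthocyanidins. UGT78D2 read 664 and 509 at 0 h, 1329.9 and 1733 at 3 h, 1604 and 1252 at 12 h, 928 and 1147 at 24 h, 755 and 1045 at 48 h, and 748 and 779 at 72 h. Every later array was above the higher 0 h array. On the log2 scale the difference was 1.39 ± 0.20 (SE; adjusted p = 0.000369) at 3 h, 1.29 (0.00132) at 12 h and 0.83 (0.0324) at 24 h, then 0.61 (0.136) and 0.39 (0.298). The 24 h call did not hold without 0 h replicate 2 (adjusted p = 0.197), 24 h replicate 1 (0.0965) or 24 h replicate 2 (0.242).

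UGT78D1 was dim, and its replicates were far apart. Its signals were 52.6 and 32.5 at 0 h, 112 and 214 at 3 h, 73.2 and 84.0 at 12 h, 56.5 and 28.8 at 24 h, 51.2 and 55.5 at 48 h, and 29.1 and 20.6 at 72 h. Only the 3 h and 12 h arrays stood wholly above the 0 h arrays, and both 72 h arrays lay below them. It rose by 1.91 ± 0.39 on the log2 scale at 3 h (adjusted p = 0.00478). It failed the test without 0 h replicate 2 (1.56, adjusted p = 0.0526) or 3 h replicate 2 (1.44, 0.0692). The differences at 12 to 72 h were 0.92 (0.185), -0.04 (0.979), 0.37 (0.732) and -0.76 (0.298). The 72 h arrays, 1 of the 0 h arrays and 1 of the 24 h arrays were at or below the 40th percentile, so the sizes of these differences are uncertain.

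Other UGT genes also passed as higher at 72 h. UGT84A3 (AT4G15490) also esterifies hydroxycinnamic acids. Its signals were 99.3 and 64.7 at 0 h, 229 and 160.3 at 3 h, 186 and 156 at 12 h, 177 and 168 at 24 h, 205 and 211 at 48 h, and 185 and 192 at 72 h. All later arrays were above both 0 h arrays, and there was no return towards 0 h. The log2 difference was 1.26 ± 0.22 (SE; adjusted p = 0.00152) at 3 h, 1.09 (0.00718) at 12 h, 1.11 (0.0104) at 24 h, 1.38 (0.00252) at 48 h and 1.23 (0.00376) at 72 h. Leaving out 0 h replicate 2, the lower of the 0 h arrays, gave 0.78 (0.0734) at 12 h and 0.80 (0.0937) at 24 h. The 12 h call was also lost without 12 h replicate 1 (0.0755), and the 24 h call without 24 h replicate 1 (0.112) or 24 h replicate 2 (0.0554).

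UGT87A2 (AT2G30140) is known for a role in flowering time. It read 326 and 339 at 0 h, 992 and 1121 at 3 h, 583 and 687 at 12 h, 702 and 651 at 24 h, 698 and 996 at 48 h, and 660.4 and 843 at 72 h. The lowest later array was well above the 0 h pair, and the 3 h pair was high. It rose at every time, by 1.67 ± 0.18 on the log2 scale at 3 h (adjusted p = 3e-05), 0.93 (0.00586) at 12 h, 1.03 (0.00516) at 24 h, 1.33 (0.000873) at 48 h and 1.17 (0.00155) at 72 h. The 12 h call did not hold without 12 h replicate 2 (adjusted p = 0.0707), and the 24 h call without 24 h replicate 1 (0.0745).

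UGT72E2 (AT5G66690) glucosylates the monolignols coniferyl and sinapyl alcohol. Its signals were 1266 and 1022 at 0 h, 1972 and 1629 at 3 h, 2025 and 1981 at 12 h, 2004 and 1625 at 24 h, 2113 and 2438 at 48 h, and 2539 and 2319 at 72 h. All later arrays were above 0 h, and the 72 h mean was the highest of the 6 groups. Relative to 0 h, the log2 difference was 0.66 ± 0.16 (SE; adjusted p = 0.013) at 3 h, 0.82 (0.00526) at 12 h, 0.67 (0.0272) at 24 h, 1.00 (0.00228) at 48 h and 1.09 (0.000851) at 72 h. The calls for the first 3 of these were lost when certain single arrays were left out. Without 0 h replicate 2 the adjusted p was 0.108 at 3 h, 0.0543 at 12 h and 0.173 at 24 h. It was 0.0864 at 3 h without 3 h replicate 1, and 0.278 at 24 h without 24 h replicate 1.

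UGT73B4 (AT2G15490) and UGT73B5 (AT2G15480) respond to pathogens and chemical stress, and UGT73B4 can glucosylate breakdown products of the explosive TNT. UGT73B4 read 661 and 673 at 0 h, 1758 and 1796 at 3 h, 1034 and 945 at 12 h, 876 and 875 at 24 h, 979 and 1065 at 48 h, and 909.9 and 1056 at 72 h. The 3 h pair stood apart from all others, and every later array was still above 0 h. On the log2 scale the difference was 1.41 ± 0.13 (SE; adjusted p = 6.54e-06) at 3 h, 0.57 (0.0149) at 12 h, 0.39 (0.116) at 24 h, 0.61 (0.0166) at 48 h and 0.55 (0.0214) at 72 h. The 12 h call was lost without 0 h replicate 2 (0.0548) or 12 h replicate 1 (0.115). The 48 h call was lost without any 1 of the 0 h and 48 h arrays (0.0545 to 0.177). The 72 h call was lost without 0 h replicate 1 (0.0561), 0 h replicate 2 (0.0718) or 72 h replicate 2 (0.221).

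UGT73B5 read 369.6 and 387 at 0 h, 1253 and 923 at 3 h, 538 and 643 at 12 h, 515 and 596 at 24 h, 666 and 710.0 at 48 h, and 663 and 521 at 72 h. The 3 h pair was highest and the 0 h pair lowest. The log2 difference was 1.51 ± 0.18 (SE; adjusted p = 5.72e-05) at 3 h, 0.64 (0.0418) at 12 h, 0.55 (0.102) at 24 h, 0.86 (0.0138) at 48 h and 0.64 (0.0486) at 72 h. The calls at 12 h and 72 h lay close to the threshold and did not survive leaving out any 1 of the 4 arrays concerned. Both were also lost without any 1 of the 24 h or 48 h arrays, and the 72 h call without either 12 h array. The 48 h call was lost without any 1 of the 0 h or 48 h arrays.

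**Figure D3:**
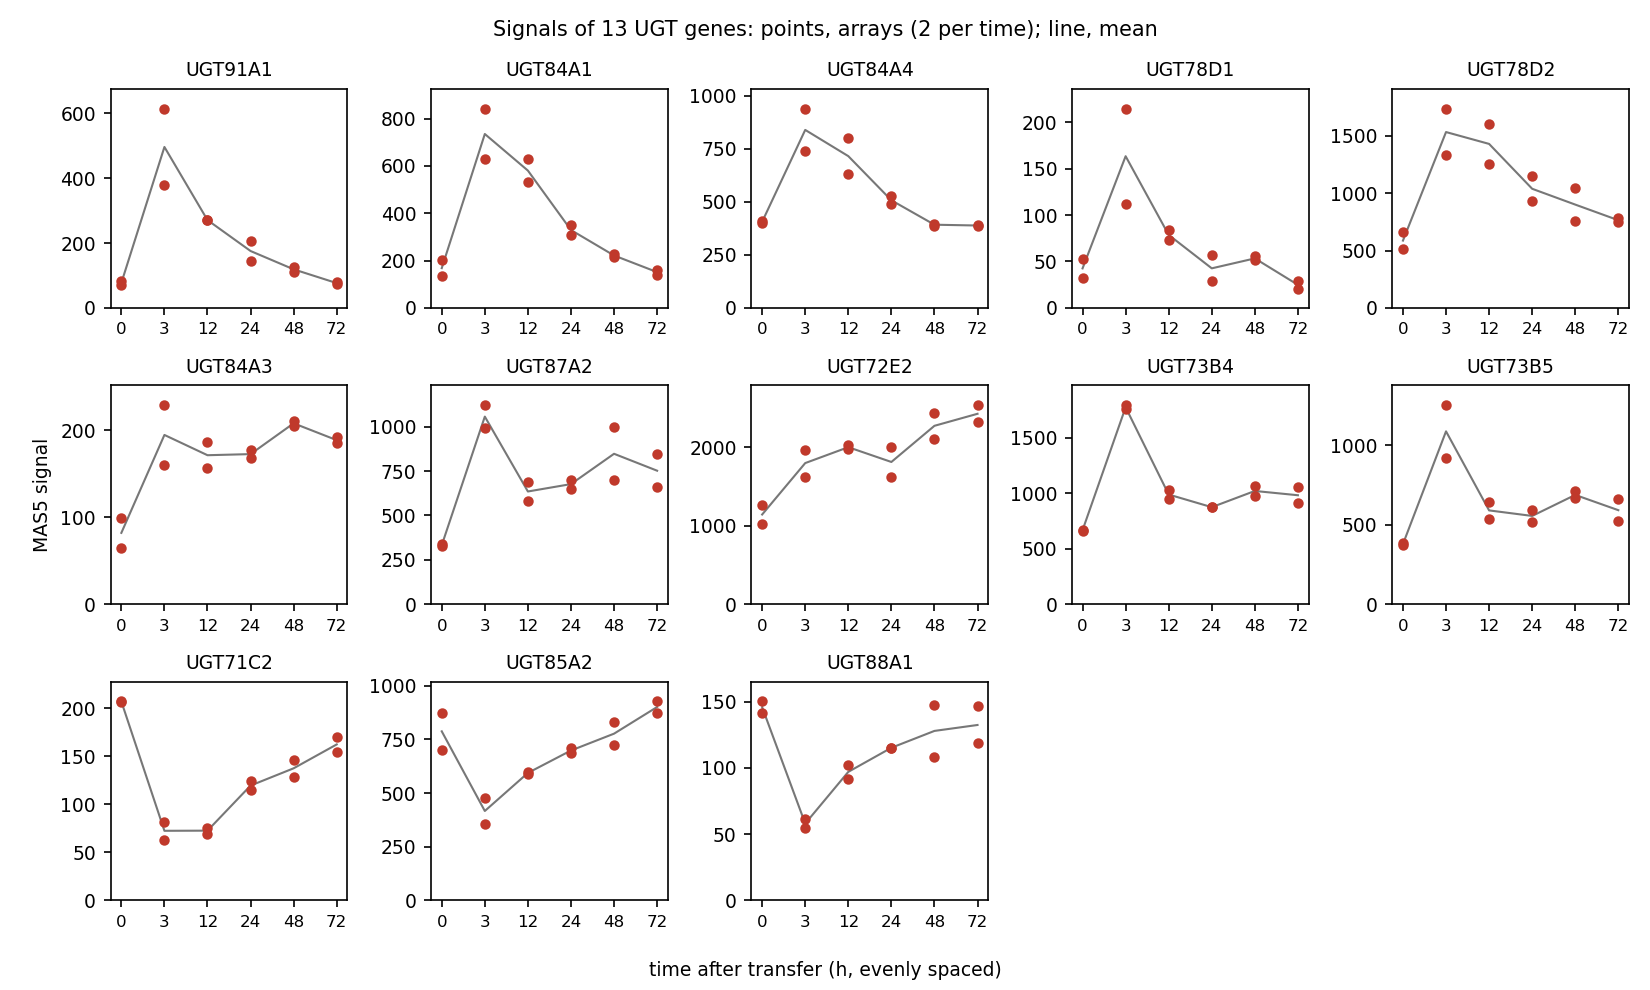
Signal (MAS5 intensity, linear axis from 0) of the 13 UGT genes that differed from 0 h against time after transfer in hours (evenly spaced), 1 panel a gene, with a point for each array and a line through the group means. UGT84A1 and UGT91A1 return to their 0 h signals by 72 h, while UGT84A3 and UGT87A2 do not. UGT85A2 and UGT88A1 are lowest at 3 h, and UGT71C2 is about equally low at 3 h and 12 h.

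UGT71C2 (AT2G29740) fell furthest. The 0 h pair read an equal 207, followed by 82.0 and 62.7 at 3 h, 75.7 and 69.4 at 12 h, 124 and 115 at 24 h, 146 and 128 at 48 h, and 154 and 170.4 at 72 h. Every later array was below 0 h, with the 3 h and 12 h arrays lowest. Relative to 0 h, the log2 difference was -1.53 ± 0.18 (SE; adjusted p = 7.63e-05) at 3 h, -1.51 (0.000226) at 12 h and -0.79 (0.0263) at 24 h, then -0.59 (0.11) and -0.35 (0.312). The 24 h call was lost without any 1 of the 0 h and 24 h arrays (0.074 to 0.167).

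UGT88A1 (AT3G16520) read 141 and 150.3 at 0 h, 55.0 and 61.1 at 3 h, 103 and 91.6 at 12 h, an equal 115 for the 24 h pair, 147 and 109 at 48 h, and 146 and 118 at 72 h. The 3 h arrays were the lowest, and from 48 h on the groups overlapped with 0 h. At 3 h it fell by 1.33 ± 0.20 in log2 units (adjusted p = 0.000486), and the difference was -0.59 (0.0993) at 12 h and -0.15 (0.745) at 72 h. UGT85A2 (AT1G22360) read 702 and 873 at 0 h, 475 and 358 at 3 h, 599.7 and 588 at 12 h, 686 and 710.4 at 24 h, 722 and 831 at 48 h, and 875 and 927 at 72 h. Its 3 h arrays were the lowest and its 72 h arrays the highest. At 3 h it fell by 0.92 ± 0.16 in log2 units (adjusted p = 0.00167), and at 72 h the difference was 0.20 (0.536).

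Of the differences between successive times on sulfur-deficient medium, the first, from 3 h to 12 h, held the only calls. Between 3 h and 12 h, UGT73B4 fell by 0.85 ± 0.13 in log2 units (adjusted p = 0.00401) and UGT73B5 by 0.87 ± 0.18 (0.0209). Among all tested probe sets 1.04% rose and 1.12% fell over that step. The call for UGT73B5 was lost without 3 h replicate 1 (0.0829), 12 h replicate 1 (0.213) or 12 h replicate 2 (0.0536). Without 3 h replicate 1 the number of UGT calls in this step was 5, and it was 1 without either 12 h array. For UGT87A2 and UGT91A1 the step was -0.74 (adjusted p = 0.0528) and -0.83 (0.0903). The step of UGT87A2 passed with the replicate block (0.0366), with an offset before log2 (0.0488), with the stricter filter (0.0498) and without either 48 h array (0.0385 and 0.0391). That of UGT91A1 passed without 3 h replicate 1 (0.0156). From 12 h to 24 h, 24 h to 48 h and 48 h to 72 h, limma called 0 UGT genes, and 6, 3 and 3 of the 31 had an unadjusted p under 0.05, beside 7.74%, 3.34% and 4.88% of all tested probe sets. After adjustment, the shares of all tested probe sets called in these steps were 0.0273%, 0.0204% and 0.0818%.

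The early and late responses were compared directly as 72 h against 3 h, a comparison added after the data were seen. It shares its arrays with the differences from 0 h given above. Over all tested probe sets 4.59% were higher and 3.97% lower at 72 h. Of the 31 UGT genes, 8 were lower at 72 h and 3 were higher. UGT78D1 was lower by a log2 difference of -2.67 ± 0.39 (SE; adjusted p = 0.00067), UGT91A1 by -2.66 ± 0.23 (1.15e-05) and UGT84A1 by -2.27 ± 0.20 (1.37e-05). For UGT78D1 both 72 h arrays were at or below the 40th percentile, so the size of its difference is uncertain. UGT84A4 (-1.10), UGT78D2 (-0.99), UGT73B5 (-0.87), UGT73B4 (-0.86) and UGT71C3 (-0.78) were lower too. The 3 genes that had fallen at 3 h were higher at 72 h, UGT71C2 and UGT88A1 by 1.18 and UGT85A2 by 1.13.

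The members called at all 5 times did not pass in this comparison. The log2 difference between 72 h and 3 h was -0.02 for UGT84A3 (95% interval -0.49 to 0.45, adjusted p = 0.974). It was -0.50 for UGT87A2 (-0.89 to -0.11, 0.114) and 0.44 for UGT72E2 (0.10 to 0.77, 0.107). These intervals are those of single genes, not adjusted for the number tested, and they do not show that the levels were equal. Against 0 h UGT71C3 passed at no time in the main fit. Its difference from 0 h at 72 h was -0.61 (adjusted p = 0.106), and it was -0.84 without 0 h replicate 1. In the comparison of 72 h with 3 h UGT71C3 passed. It read 212 and 291 at 0 h, 236 and 326 at 3 h, and 174 and 152 at 72 h. It failed the test without 3 h replicate 2 (adjusted p = 0.278), 72 h replicate 1 (0.0757) or 72 h replicate 2 (0.233), with no trend of the prior variance (0.0622), and with the compared groups alone (0.067). That of UGT78D2 was lost without 3 h replicate 2 (0.0766), and that of UGT73B5 without 72 h replicate 2 (0.109).

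**Figure D4:**
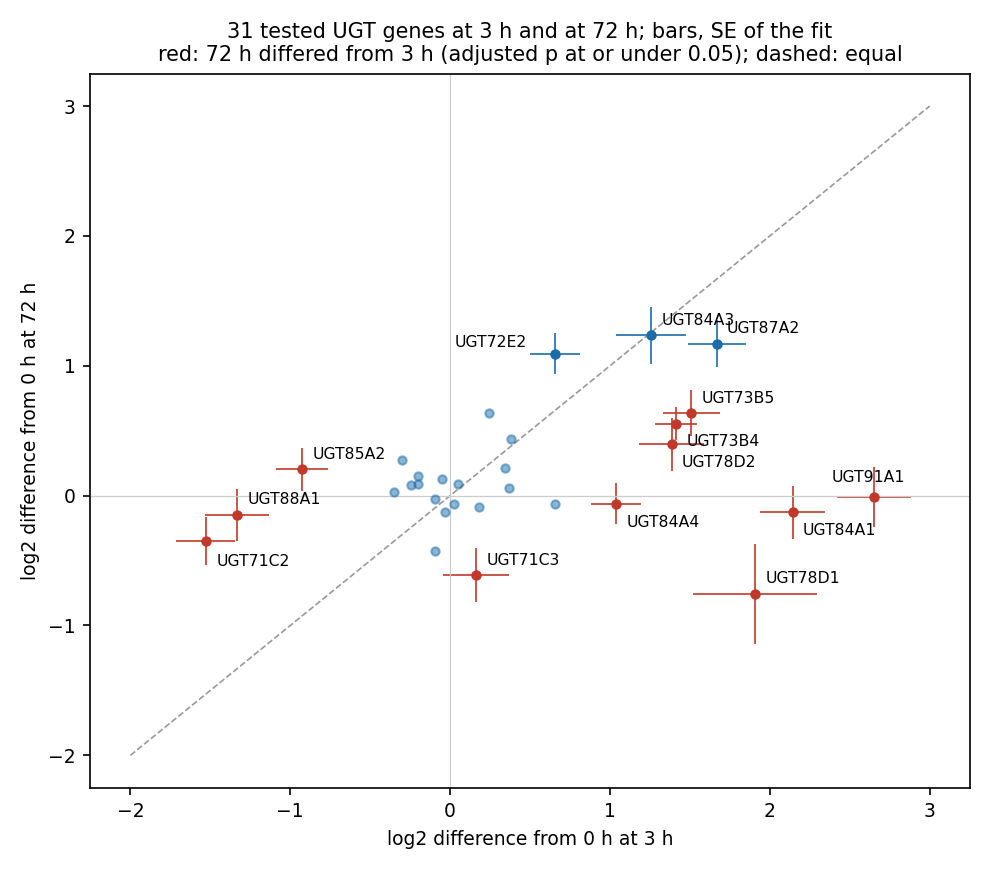
Log2 difference from 0 h at 72 h (vertical axis) against that at 3 h (horizontal axis) for the 31 tested UGT genes, with SE bars and names for called genes, genes that differed between 3 h and 72 h in red, and a dashed line of equal values. Both axes share the 0 h arrays, so no correlation is read from the plot. UGT91A1 and UGT84A1 lie far right at about 0 on the vertical axis, while UGT84A3, UGT87A2 and UGT72E2 lie near or above 1 on it.

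The 18 tested UGT genes with no call against 0 h had log2 differences between -0.61 and 0.73, with SE from 0.15 to 0.39. The 2 tested cytokinin enzymes were among them. UGT76C2 ranged from -0.35 at 3 h to 0.41 at 12 h, and UGT76C1, near the filter's limit, from -0.44 to -0.03. UGT76B1, which glucosylates isoleucic acid and salicylic acid, had differences from -0.27 to 0.08. Its 0 h arrays were far apart, at 1465 and 845.

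UGT74D1, which acts on auxins, had differences of 0.31 to 0.43 at all 5 times, and none passed (adjusted p = 0.106 to 0.298). UGT71C5, an abscisic acid glucosyltransferase, had differences between -0.02 and 0.09, with an SE of 0.15. UGT80B1, which glucosylates sterols, ranged from -0.23 to 0.09. UGT72E1, which acts on coniferyl and sinapyl aldehydes, read 1258 and 1122 at 0 h, 1560.1 and 933 at 3 h, 1916 and 2032 at 12 h, 1849 and 1539.6 at 24 h, 1416 and 1529 at 48 h, and 1434 and 901 at 72 h. Its 12 h arrays were the highest, and the difference there was 0.73 ± 0.23 (SE; adjusted p = 0.0752). That difference passed with the compared groups alone (0.021), with the replicate block (0.0446), and without any 1 of the 3 h or 72 h arrays (0.0246 to 0.0487).

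By group number, calls at any time were made for 3 of 3 tested genes of group 84, 2 of 2 of group 78 and 2 of 4 of group 73. They were made for 1 of 6 of group 71, 1 of 4 of group 72, 1 of 2 of group 85, and for the single tested genes of groups 87, 88 and 91. Groups 74 (2 tested), 76 (4 tested) and 80 (1 tested) had none, with log2 differences of -0.44 to 0.43. In groups 71 and 85 the called gene fell, and in group 72 it rose while UGT72E1, UGT72E3 and UGT72B3 did not pass. Over all tested probe sets 17.2% were called at 1 or more of the 5 times. These counts are small and no test was made between groups.

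Many UGT genes lie beside each other. In the gene order of the RefSeq annotation (TAIR10.1), 24 of the 47 were next to another of the 47, in 14 pairs. Both genes were tested in 7 pairs. In 3 of these both rose at 3 h, namely UGT73B5 with UGT73B4, UGT84A1 with UGT84A3 and UGT84A3 with UGT84A4. The last 2 pairs share UGT84A3, and 5.42% of all tested probe sets rose at 3 h. In 1 pair only UGT71C2 changed (-1.53), beside UGT71C1 (-0.30). In the other 3 pairs neither passed. Within the UGT84A row the genes ended apart: at 72 h UGT84A3 was 1.23 above 0 h on the log2 scale, between UGT84A1 (-0.13) and UGT84A4 (-0.06). Close copies can bind each other's probes, and this was not tested, so parallel values of neighbours are uncertain.

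Partner genes of the pathway were mostly not paired with a symbol by the array's annotation. Of 27 genes for the supply of UDP-sugars 1 was tested, the UDP-sugar pyrophosphorylase USP, and it did not pass at any time (-0.06 at 3 h). Of 13 flavonoid synthesis genes 2 had a named probe set, DFR and ANR, both too dim to test. Of 18 detoxification partners 3 were tested and 2 rose at every time. GSTU25, a glutathione transferase, rose by 1.52 on the log2 scale at 3 h and 1.32 at 72 h, and the alkenal reductase AER by 2.09 and 1.45. The 1 named gene of the 15 for cytokinin was not tested.

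Of 11 genes listed for the conjugation or oxidation of auxin 4 were tested. At 3 h 1 of these rose and 3 fell, beside 5.42% and 6.53% of all tested probe sets. DAO1, which oxidises auxin, rose by 1.68 ± 0.14 (SE; adjusted p = 3.69e-06), and the auxin-amino acid synthetases GH3.3 (-0.99), GH3.5 (-1.25) and GH3.17 (-0.60) fell. DAO1 was also the 1 gene that rose at each later time, while 1 synthetase fell at 12 h and 2 fell at 24, 48 and 72 h. At these later times 1.97% to 3.36% of all tested probe sets rose and 1.55% to 4.33% fell, which is also the background for the other lists here. Of 11 sulfur deficiency markers 2 were tested, and both rose at every time. SDI2 rose by 2.58 on the log2 scale at 3 h and 2.37 at 72 h, and the beta-glucosidase BGLU28 by 7.29 and 7.19. The mean BGLU28 signal at 0 h was 14.91, below the filter's lowest limit of 45.3, so the size of its rise is uncertain. These lists were drawn up with changes of some of their genes in these samples known, so their directions are not independent evidence.

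Markers of cell types moved at some of the same times. Of 5 root hair markers 2 were tested. EXPA7 (153 to 906.2 over the arrays) and EXPA18 (215.4 to 646.3) were both lower at 3 h, by log2 differences of -1.77 and -1.08, where 10 UGT genes rose. Both were lower at 24 h too (-1.15 and -1.27), and EXPA18 also at 48 h (-0.86) and 72 h (-0.80). Both green tissue markers that were tested, of 6 listed, were lower at 12 h and at no other time. These were RCA (208.1 to 460.2) at -0.90 and LHCB4.1 (112.4 to 266) at -0.80. The endodermis marker GSO1 (337.9 to 552.1) did not pass at any time, and none of 5 vascular markers had a named probe set. The part of these markers' cells in the UGT differences was not tested.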

How the data were processed

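Root RNA from 12 arrays was compared over 6 times. The values are linear intensity signals deposited by the authors, made with MAS5 per the submitters' processing notes; version, scaling target and detection calls are not given in the sources used here. Genes were named from the platform's annotation (13513 probe sets with 1 symbol). Signals were taken as log2 with no offset, and 64 control probe sets were left out. limma 3.58.1 (R 4.3.3) fitted group means over all arrays (6 residual degrees of freedom, prior variance with trend), with Benjamini-Hochberg adjustment over 14678 probe sets and a threshold of 0.05. The fit was tested on simulated data. Precision is limited by having 2 arrays per group.

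Every array's value is given for UGT genes past the threshold of the F test or of any difference from 0 h, and for the 3 of highest mean signal. UGT71C3, UGT76B1, UGT76E12 and other uncalled genes were picked for mention after their values were seen. The genes and lists were chosen with earlier results of these data known. Replicate numbers were not treated as pairs in the main fit. Deviations of same-numbered arrays correlated at -0.23 to 0.20, over 0.1 in 1 of 15 pairs of groups. The labels do not say whether same-numbered arrays were handled together, and these correlations cannot settle it. Alternatives were an offset, quantile normalization, other filters, no trend, a replicate block, the compared groups alone, each array left out, and UGT91A1 left out.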

Additional observations from a re-analysis of the deposited data

Results flagged for a closer look

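The UGT genes below had differences from 0 h that themselves differed between times, by a test of the difference. All values are log2 differences, later minus earlier, with adjusted p from limma, and the 3 h arrays enter each of them. From 3 h to 12 h, UGT73B4 differed by -0.85 (0.00401) and UGT73B5 by -0.87 (0.0209). In both genes each 12 h array was below each 3 h array.

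From 3 h to 72 h, UGT78D1 differed by -2.67 (0.00067), UGT91A1 by -2.66 (1.15e-05), UGT84A1 by -2.27 (1.37e-05), UGT84A4 by -1.10 (0.000595) and UGT78D2 by -0.99 (0.00678). UGT73B5 differed by -0.87 (0.00657), UGT73B4 by -0.86 (0.000855) and UGT71C3 by -0.78 (0.032). UGT71C3 had no called difference from 0 h at any time in the main fit. UGT71C2 differed by 1.18 (0.00118), UGT88A1 by 1.18 (0.00198) and UGT85A2 by 1.13 (0.000627). For UGT78D1 both 72 h arrays were at or below the 40th percentile, so the size of its difference is uncertain. The comparison of 72 h with 3 h was chosen after seeing the data. No group had enough arrays for a test of outlying samples.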

How the results depend on the processing

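Of 40 called differences of UGT genes from 0 h, 21 passed under all 19 alternatives, none changed sign, and the other 19 were lost when some array was left out. At 3 h UGT78D1 and UGT72E2 were the only calls lost. Without a trend in the prior variance the calls numbered 3 at 72 h and 1 between 3 h and 12 h, and with the compared groups alone again 3 and 1; the cause was not tested. Both settings lost UGT73B5 at 12 h, 72 h and between 3 h and 12 h, UGT72E2 and UGT78D2 at 24 h, UGT73B4 at 48 h and 72 h, and UGT71C3 between 3 h and 72 h, and the compared groups alone also lost UGT72E2 at 3 h and UGT73B4 at 12 h. Leaving out 1 array gave 12 to 14 calls at 3 h, 6 to 11 at 12 h, 0 to 7 at 24 h, 3 to 5 at 48 h, 3 to 5 at 72 h, 1 to 5 between 3 h and 12 h, 9 to 12 between 3 h and 72 h, and 13 to 16 by the F test. A group with 1 array left was assumed to vary like the others.

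With the replicate block the calls numbered 13, 10, 7, 5 and 4 at the 5 times and 3 between 3 h and 12 h. UGT73B5 was lost at 12 h (adjusted p = 0.0557) and 72 h (0.0643), UGT72E1 was gained at 12 h (0.0446), and UGT87A2 between 3 h and 12 h (0.0366). Without the filter UGT73B5 was lost at 12 h (0.0514) and 72 h (0.0598), and UGT71C2 at 24 h (0.054). UGT78D1 was not tested under the stricter filter, and the F test was not possible with the compared groups alone. Each gene had 1 probe set, so another choice of probe set could not be tried.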

Other observations

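Another 8 probe sets were found by a UGT name among their symbols or synonyms, or by the symbol IAGLU. The naming rule did not take them, because the annotation uses another symbol or gives several genes. UGT genes with no such name were not found by this search, so the family may not be complete here. Of the 8 probe sets 6 were tested, 3 rose at 3 h and 0 fell, beside 5.42% and 6.53% of all tested probe sets. IAGLU (AT4G15550), named for the glucosylation of indole-acetic acid, had a mean signal of 280 at 0 h and 854 at 3 h, a log2 difference of 1.62 ± 0.17 (SE, 2 arrays a group; adjusted p = 1.89e-05), and passed at all later times with 0.66 to 0.86. GT72B1 (AT4G01070), which acts on chlorinated phenols, went from 793 to 1620, a difference of 1.05 ± 0.18 (0.00132). A probe set shared by UGT73B2 and UGT73B3 rose by 1.20 ± 0.14 (4.27e-05), and the 2 genes cannot be told apart. The sterol glucosyltransferase SGT (AT3G07020) had a difference of -0.30 (0.401) at 3 h.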
